A study of Mus musculus with 6 samples.

Results

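Epithelial cells are held together by adherens junctions, in which E-cadherin binds its like on the next cell and is anchored inside through catenins, and by tight junctions built from claudins that seal the sheet. Keratin 8 pairs with keratin 18 or 19 to form the intermediate filaments of simple epithelia. Mouse pluripotent stem cells carry E-cadherin, EpCAM and claudins as epithelia do, and cells that leave the epiblast through the primitive streak exchange E-cadherin for other cadherins. The 10 genes described here are Cdh1 (E-cadherin), Epcam, the claudin genes Cldn6 and Cldn7, the keratin genes Krt8, Krt18 and Krt19, the adaptor gene Ap1m2, the splicing regulator Esrp1 and the transcription factor Grhl2. They were taken by name from a deposited table of 31265 genes, and each name matched 1 row.

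The cells were mouse E14Tg2a embryonic stem cells, wild type per the labels, that were differentiated as embryoid bodies for 5 days and all carried the nuclear glutathione redox sensor Grx1-roGFP2. Live cells, negative for propidium iodide, were sorted from 3 populations, A, B and C, by the ratio of the sensor, and the 10% at the oxidized end and the 10% at the reduced end were kept. This gave 3 oxidized and 3 reduced libraries of poly(A) RNA, and the question is whether nuclear redox state goes with cell fate. Values for a sort are given throughout in the order A, B and C. The sources used here do not say what distinguishes the 3 populations (clone, culture or day), so p-values measure only the spread between these libraries, which may be technical. The labelled cell type, embryonic stem cells, was met in part. Pou5f1 was at 73.0 to 199 FPKM over the 6 libraries and Sox2 at 39.5 to 68.6 FPKM. The 10 naive state genes listed below ranged widely, from Esrrb at 0.311 to 1.01 FPKM to Dppa3 at 91.8 to 171 FPKM. Lineage genes such as Hand1, at 62.9 to 188 FPKM, stood beside them. FPKM is fragments per kilobase of transcript and per library total, a level per length that can be compared between genes.

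Libraries stood apart in ways that the sort alone does not describe. A locus of ribosomal RNA, CT010467, summed to 41528 to 52117 FPKM in 4 libraries, but oxidized A and B held 1798 and 2357 FPKM. Embryonic globins summed to 594 and 610 FPKM in oxidized and reduced C, against 26.4 to 73.9 FPKM in A and B. Mitochondrially encoded mRNAs summed to 2324 to 3917 FPKM in the 4 libraries other than oxidized A and B, which held 7348 and 5160 FPKM. Depth, estimated from the spacing of low values, was 1.20e+07 to 1.82e+07 fragments per library, lowest in population C. That estimate is rough, as only 26.6% to 29.8% of low values lay within 2% of whole steps. The part of these traits in the results below was not tested. A fit without oxidized C sets oxidized A and B against the reduced libraries. There the sort cannot be told apart from the CT010467 and mitochondrial traits. The same holds for a fit without population C.

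Ap1m2 is the member whose groups were farthest apart, and its promoter is shown because a short element recurs in it. Beside it stand the promoters of Epcam and Cldn7, genes of the lateral membrane whose groups overlapped. Each sequence is the 250 bases before the start of the gene in RefSeq (GRCm38.p6), read 5′ to 3′ on the strand of the gene. Capitals mark the E-box CACCTG or its reverse complement CAGGTG, the letters to which the Snail and Zeb repressors of epithelial genes bind.
Ap1m2 (chr9:21312334-21312583, minus strand): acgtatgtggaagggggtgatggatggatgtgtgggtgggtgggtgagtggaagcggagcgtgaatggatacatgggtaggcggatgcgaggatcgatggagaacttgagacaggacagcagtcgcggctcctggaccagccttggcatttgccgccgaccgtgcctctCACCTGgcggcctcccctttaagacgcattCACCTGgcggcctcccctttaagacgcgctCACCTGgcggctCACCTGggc
Epcam (chr17:87635729-87635978, plus strand): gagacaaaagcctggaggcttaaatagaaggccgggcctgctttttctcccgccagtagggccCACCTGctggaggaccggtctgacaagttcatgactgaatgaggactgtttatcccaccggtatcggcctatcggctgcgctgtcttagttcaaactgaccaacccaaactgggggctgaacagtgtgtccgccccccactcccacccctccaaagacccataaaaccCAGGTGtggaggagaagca
Cldn7 (chr11:69964529-69964778, plus strand): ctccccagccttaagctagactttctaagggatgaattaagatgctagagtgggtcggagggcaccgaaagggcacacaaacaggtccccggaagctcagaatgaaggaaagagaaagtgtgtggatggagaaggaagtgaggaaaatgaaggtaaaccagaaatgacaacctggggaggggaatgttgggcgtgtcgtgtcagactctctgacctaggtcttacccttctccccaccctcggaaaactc

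The Ap1m2 window holds 4 E-boxes, which begin 81, 51, 21 and 9 bases before the start. Those at 81 and 51 bases are each followed by the same run of bases, a repeat within the window. The Epcam window holds 2, which begin 187 and 19 bases before the start, and the Cldn7 window shown holds 0. Of 32851 promoter windows of the same length, 17.2% hold at least 1 E-box on either strand and 0.0426% (14 windows) hold at least 4. RefSeq windows were matched for 6 members. Cdh1, Krt19, Esrp1 and Grhl2 had no entry. Cldn6, Krt8, Krt18 and a second Cldn7 window held 1, 1, 1 and 2 E-boxes, so each of the 6 members had at least 1 in a window. The GRHL motif AACCNGTT, searched on both strands, was in 0 windows of the 6 members and in 1.79% of all windows. A match is a description of letters and shows no binding.

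Ap1m2 was the 1 member called. It encodes the medium subunit of the epithelial form of the AP-1 clathrin adaptor, which sorts proteins to the basolateral membrane (chr9:21294275-21312337, protein coding). It was at 10.8, 10.4 and 6.73 FPKM in the oxidized libraries, and the reduced libraries held 26.7, 24.2 and 24.4 FPKM. Every oxidized library lay below every reduced one. Ap1m2 fell by 1.37 on the log2(FPKM + 1) scale, oxidized minus reduced (SE 0.19, n = 3 each, limma adjusted p = 0.0302), and its mean was 2.70 times as high in reduced as in oxidized cells. In the authors' deposited table its q-value was 4.9e-09. With the population as a block its adjusted p was 0.0613. It also missed the threshold without oxidized A (0.0744), oxidized B (0.0986), reduced A (0.160), reduced B (0.159) or reduced C (0.0511), while the difference ran from -1.48 to -1.17 when any 1 library was left out. That Ap1m2 is lower was known when the members were chosen.

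Over all 12191 genes tested, 0.279% were called lower and 0.517% higher in oxidized cells (34 and 63 genes; 50 and 62 under median-ratio scaling, 51 and 54 under quantile normalization). Of the 10 members, which all passed the filter of a mean of at least 1 FPKM, 1 was called lower and 0 higher by limma. At an unadjusted p under 0.05, 2 members were lower and 0 higher, beside 5.93% and 13.5% of all genes. The median log2 difference of the members was -0.32, that of all tested genes 0.08. Groups did not overlap for 2 members, both lower in oxidized cells, against 8.81% of all genes in that direction and 16.2% in the other.

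Grhl2 was the other member without overlap. It encodes a grainyhead-like transcription factor that activates epithelial junction genes (chr15:37233036-37363569, protein coding). It was low, at 0.934, 1.29 and 0.592 FPKM in the oxidized libraries against 2.10, 2.10 and 1.43 FPKM in the reduced libraries. The lowest reduced library, C, was just above the highest oxidized one, B. Its log2 difference was -0.58 (SE 0.20, 95% interval -1.03 to -0.12), with an unadjusted p of 0.0183 and a limma adjusted p of 0.173, so it was not called. The authors' deposited table gives Grhl2 a q-value of 0.0187. That table marks 2 members, Ap1m2 and Grhl2, as lower and 0 as higher, against 0.704% and 1.23% of its 31265 genes. Only 12191 of those genes reached a mean of 1 FPKM, as all 10 members did, so the share is not one over expressed genes. A log2(FPKM + 1) difference understates the change of a gene this low, and the mean was 2.00 times as high in reduced cells. Gm16136, on the opposite strand, overlaps an exon of Grhl2 and was at 0.195 to 0.872 FPKM.

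Esrp1 directs the splicing of epithelial isoforms (chr4:11331933-11386783). It was at 2.20, 4.05 and 1.25 FPKM in the oxidized libraries, and the reduced libraries held 2.74, 3.85 and 2.64 FPKM. The groups overlapped, with population B high in both and oxidized C lowest. The log2 difference was -0.29 (SE 0.29, 95% interval -0.94 to 0.36, limma adjusted p = 0.606), and -0.0079 without oxidized C.

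**Figure D1:**
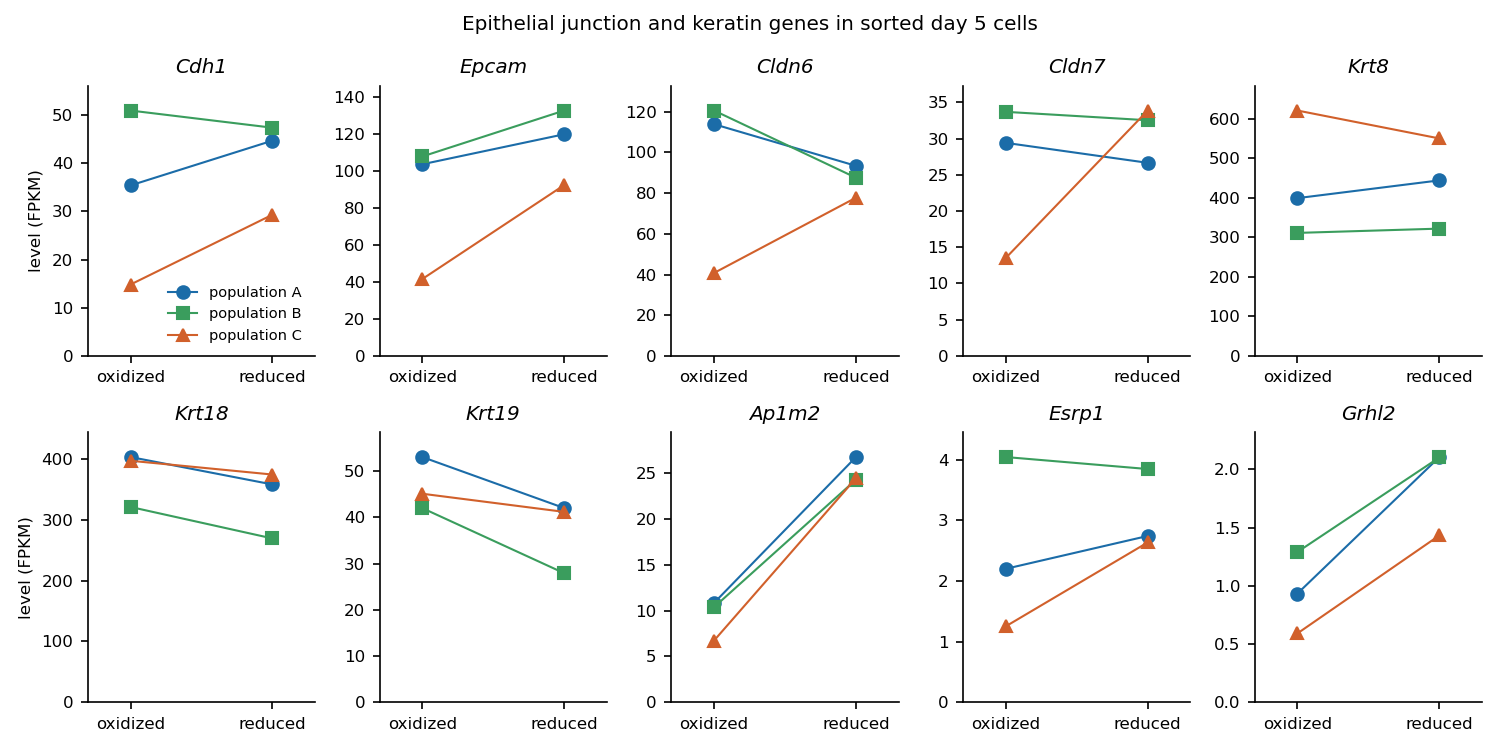
Levels of the 10 genes (y axis, FPKM from 0) in oxidized and reduced libraries, each line joining the 2 libraries of a population. Ap1m2 drops from reduced (24.2 to 26.7 FPKM) to oxidized (6.73 to 10.8 FPKM) in each population, whereas the lines of Cdh1, Epcam, Cldn6 and Cldn7 are steep in population C and the Krt8 and Krt18 lines slope little.

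Cdh1, the adherens junction cadherin (chr8:106603351-106670246), was at 35.4, 51.0 and 14.8 FPKM in the oxidized libraries, and the reduced libraries held 44.7, 47.4 and 29.3 FPKM. Oxidized C was the lowest library, and oxidized B the highest. The log2 difference between the groups was -0.39 (SE 0.40, limma adjusted p = 0.613), with a 95% interval from -1.29 to 0.52. Within populations oxidized cells held 79.2%, 107.5% and 50.6% of the reduced FPKM in A, B and C. Without oxidized C the difference of Cdh1 was 0.10.

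Epcam, a homophilic adhesion molecule of stem cells and epithelia (chr17:87635979-87651129), was at 104, 108 and 41.5 FPKM in the oxidized libraries. In the reduced libraries it was at 119.7, 133 and 92.3 FPKM. Within each population the oxidized library was the lower one, though oxidized A and B lay inside the reduced range. The log2 difference was -0.55 (SE 0.35, 95% interval -1.33 to 0.24, limma adjusted p = 0.412), and -0.10 without oxidized C.

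The claudin genes did not share 1 order of libraries. Cldn6, a claudin of early embryonic epithelia (chr17:23679249-23682446), was at 113.9, 121 and 40.8 FPKM in the oxidized libraries, and the reduced libraries held 93.4, 87.6 and 77.7 FPKM. Oxidized A and B were above all reduced libraries and oxidized C below them. Its group difference was therefore close to 0, at -0.06 (SE 0.37, 95% interval -0.90 to 0.78, limma adjusted p = 0.944), and it was 0.44 without oxidized C. Cldn7, a claudin that binds EpCAM (chr11:69964779-69967885), was at 29.4, 33.7 and 13.5 FPKM in the oxidized libraries, and the reduced libraries held 26.7, 32.5 and 33.9 FPKM. Oxidized C stood alone below the others. The log2 difference of Cldn7 was -0.36 (SE 0.31, 95% interval -1.06 to 0.34, limma adjusted p = 0.539), and 0.03 without oxidized C.

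Krt8 and Krt18 were the most abundant members. Krt8, the type II keratin of simple epithelia (chr15:101996698-102004482), was at 399, 311 and 620.2 FPKM in the oxidized libraries, and the reduced libraries held 444, 322 and 549.6 FPKM. Its levels went with the population, highest in C and lowest in B in both sorts. Its log2 difference was -0.01 (SE 0.29, 95% interval -0.67 to 0.65, limma adjusted p = 0.989). Krt8 is uncertain in level, since 36.0% of the 31-base stretches of its transcripts also occur in other genes, mainly the pseudogene Krt8-ps, which was at 2.78 to 5.54 FPKM.

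Krt18, the type I partner of keratin 8 (chr15:102028180-102032027), was at 403, 321 and 397 FPKM in the oxidized libraries against 358, 269 and 374 FPKM in the reduced libraries. In each population the oxidized library was slightly higher, and the groups overlapped (log2 difference 0.17, SE 0.19, 95% interval -0.27 to 0.61, limma adjusted p = 0.657). Other genes hold 11.4% of its stretches. Krt18 lies 23697 bases from Krt8 on chromosome 15. Krt19, a type I keratin without a tail domain (chr11:100140810-100148665), was at 53.0, 42.0 and 45.1 FPKM in the oxidized libraries. In the reduced libraries it was at 42.0, 27.9 and 41.2 FPKM, so reduced B was the lowest library. Its log2 difference was 0.34 (SE 0.20, 95% interval -0.10 to 0.79, limma adjusted p = 0.363), the largest positive value among the members. Without reduced B the difference was 0.16 for Krt19 and 0.022 for Krt18.

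**Figure D2:**
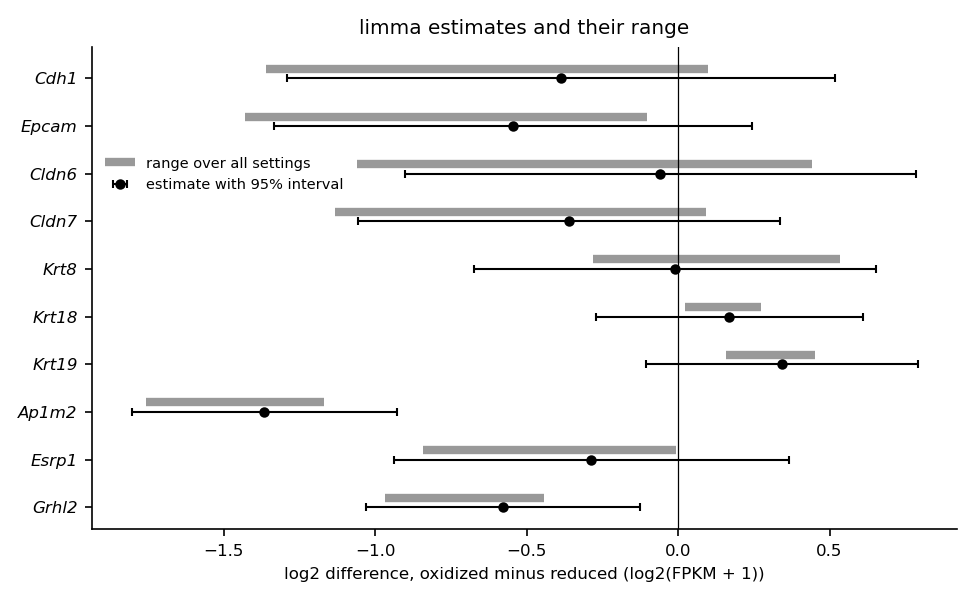
Points give the limma log2 difference of each gene (x axis, oxidized minus reduced, log2(FPKM + 1)) with its 95% interval, and grey bars the range of that value over all settings tried. The Ap1m2 interval, from -1.80 to -0.93, and the Grhl2 interval lie below 0, and the other 8 intervals cross 0.

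Each population was also read on its own. In population C the junction genes Cdh1, Epcam, Cldn6 and Cldn7 had log2 differences of -0.94, -1.13, -0.92 and -1.26, with a median of -1.04, against a median of 0.00025 over all tested genes. In populations A and B their medians were -0.04 and 0.08, against 0.09 and 0.14 over all tested genes. Ap1m2, Esrp1 and Grhl2 had medians of -0.68, -0.44 and -0.69 in A, B and C, and the 3 keratin genes 0.17, 0.25 and 0.13. Summed over the 4 genes, oxidized and reduced cells held 111 and 233 FPKM in C, 282 and 284 FPKM in A and 313 and 300.01 FPKM in B. All 4 lay below the reduced range in oxidized C while oxidized A and B did not, a pattern that 12.7% of all tested genes had.

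The keratin genes differed from the junction genes in population C. Oxidized C was above all reduced libraries for these 3 members, as for 32.3% of tested genes, and below all of them for the other 7, as for 30.3%. Krt8, Krt18 and Krt19 summed to 1062 FPKM in oxidized C against 965 FPKM in reduced C. Log2 differences at or below -1 were found for 3 members in population C (Epcam, Cldn7 and Ap1m2), where 1.67% of tested genes reached this size. In population A it was 1 member, Ap1m2, against 2.21% of genes, and in population B also Ap1m2 alone, against 2.61%. Each population has 1 oxidized and 1 reduced library, so the difference between populations was not tested.

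**Figure D3:**
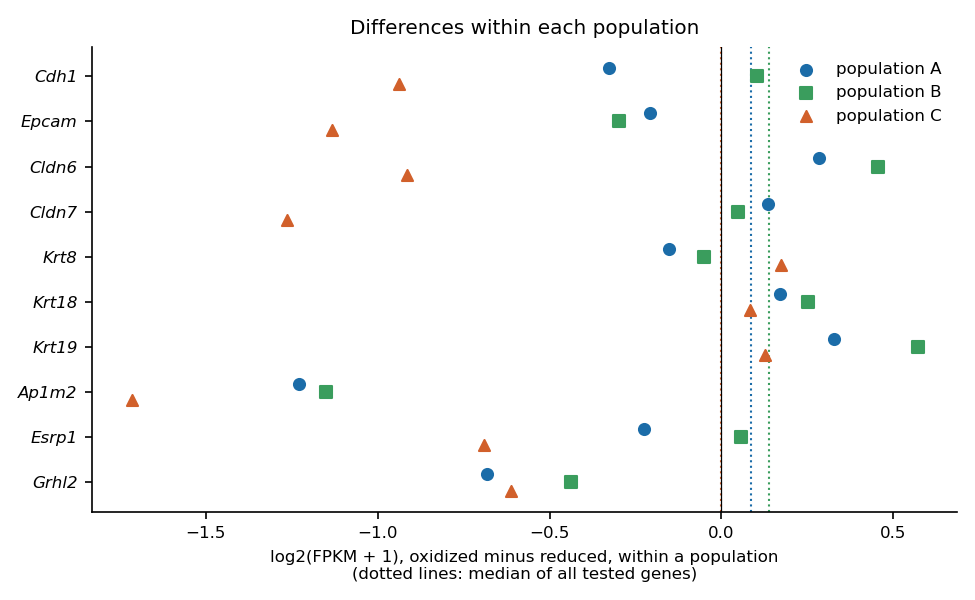
Log2 difference within each population (x axis, oxidized minus reduced, log2(FPKM + 1)) for the 10 genes, with dotted lines at the median of all tested genes. The Ap1m2 points lie at -1.23, -1.15 and -1.72 in A, B and C, and the triangles of population C lie left of the other points for Cdh1, Epcam, Cldn6 and Cldn7.

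Ratios of 2 genes within a library do not depend on how libraries were scaled. The 6 pairs were chosen after the values were seen, and with 3 libraries against 3 the exact permutation test cannot go below 0.10. Ap1m1 encodes the ubiquitous counterpart of the Ap1m2 subunit. The ratio of Ap1m2 to Ap1m1 was 0.167, 0.149 and 0.126 in the oxidized libraries and 0.715, 0.729 and 0.663 in the reduced libraries. All reduced libraries were above all oxidized ones, with a log2 ratio difference of -2.26 (exact permutation test, two-sided, p = 0.1, the smallest possible; 0.2 after Benjamini-Hochberg adjustment over the 6 pairs). Ap1m1 itself was at 64.9, 69.7 and 53.4 FPKM in the oxidized libraries against 37.3, 33.3 and 36.8 FPKM in the reduced libraries (log2 difference 0.78, SE 0.16, limma adjusted p = 0.0686), also without overlap.

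Cdh2 encodes N-cadherin, the cadherin of mesenchymal and neural cells. The ratio of Cdh1 to Cdh2 was 4.27, 6.15 and 2.30 in the oxidized libraries and 13.1, 12.6 and 7.56 in the reduced libraries. Here too the groups did not overlap (log2 ratio difference -1.46, exact permutation p = 0.1, adjusted 0.2), although Cdh1 alone overlapped. Cdh2 itself was at 8.29, 8.29 and 6.44 FPKM in the oxidized libraries against 3.43, 3.75 and 3.88 FPKM in the reduced libraries, without overlap. Its log2 difference was 0.88 (SE 0.16, limma adjusted p = 0.0545). Within A, B and C Cdh2 differed by 1.07, 0.97 and 0.61, and Cdh1 by -0.33, 0.10 and -0.94. The ratio of Cdh1 to its catenin partner gene Ctnnb1 was 0.293, 0.347 and 0.297 in the oxidized libraries and 0.760, 0.768 and 0.535 in the reduced libraries (log2 ratio difference -1.12, exact permutation p = 0.1, adjusted 0.2). Krt8 to Krt18 was 0.990 and 0.969 in oxidized A and B, 1.24 and 1.20 in reduced A and B, and 1.56 and 1.47 in oxidized and reduced C (exact permutation p = 0.6). Krt19 to Krt18 ran from 0.104 to 0.132 (exact permutation p = 0.2) and Cldn6 to Cldn7 from 2.30 to 3.87 (exact permutation p = 0.2), both with overlapping groups.

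**Figure D4:**
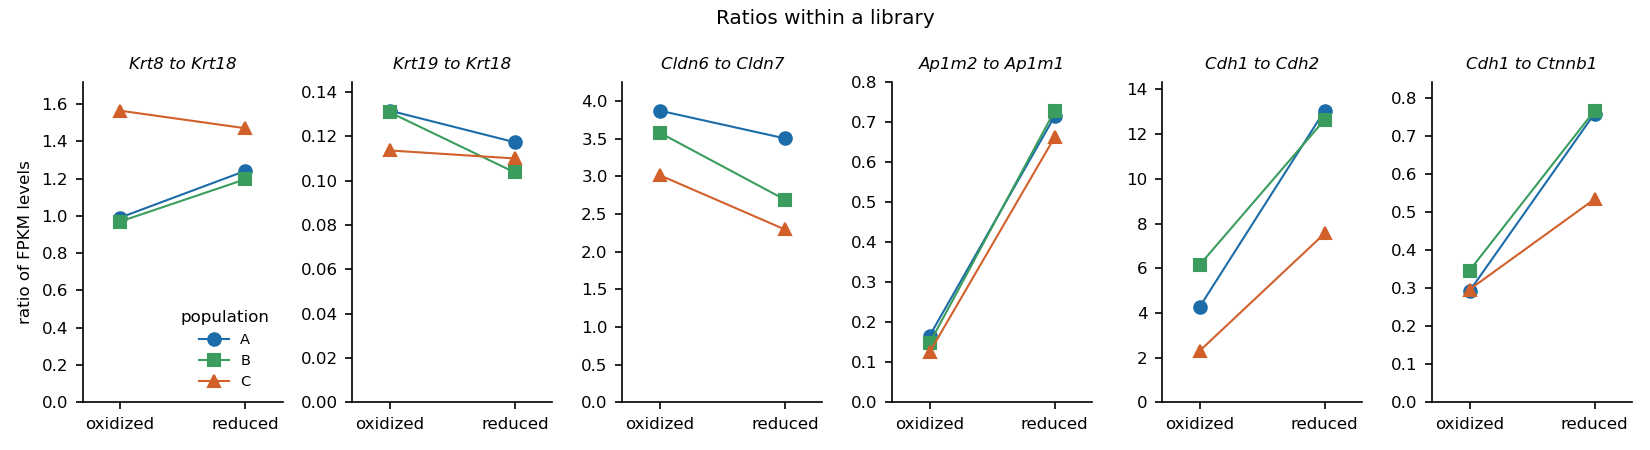
Ratio of the FPKM levels of 2 genes within a library (y axes, from 0) in oxidized and reduced libraries, with a line for each population. The ratios of Ap1m2 to Ap1m1, Cdh1 to Cdh2 and Cdh1 to Ctnnb1 separate the sorts (0.126 to 0.167 against 0.663 to 0.729 for the first), and Krt8 to Krt18 is highest in population C.

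Other epithelial genes were read from 8 lists. Over all tested genes 5.93% were lower and 13.5% higher at an unadjusted limma p under 0.05, and the median log2 difference was 0.08. Of 13 tight junction genes, all tested, 0 were called by limma, 4 were lower and 0 higher at an unadjusted p under 0.05, and the median log2 difference was -0.33. Marveld3, a tight junction membrane protein, was at 1.26, 1.27 and 1.18 FPKM in the oxidized libraries, and the reduced libraries held 2.92, 2.61 and 3.19 FPKM. The groups lay apart (log2 difference -0.80, SE 0.16, limma adjusted p = 0.0599), and under median-ratio scaling and quantile normalization the adjusted p was 0.0455 and 0.0436. With the population as a block the adjusted p of Marveld3 was 0.110, and with no filter 0.218. It missed the threshold whenever a library other than oxidized C was left out, with a highest adjusted p of 0.254 (reduced A left out). The receptor gene Lsr, the most abundant of the list, differed by -0.11 (adjusted p = 0.732).

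Of 10 adherens junction partners 9 passed the filter and 0 were called by limma, with 0 at an unadjusted p under 0.05 and a median of 0.20. Ctnnb1, which encodes beta-catenin, was at 121, 147 and 49.9 FPKM in the oxidized libraries against 58.8, 61.7 and 54.8 FPKM in the reduced libraries. Oxidized A and B were high and oxidized C was the lowest library (log2 difference 0.71, SE 0.35, limma adjusted p = 0.304). Without oxidized C the difference of Ctnnb1 was 1.18, with a limma adjusted p of 0.00507. In that fit the sort cannot be told apart from the library traits of oxidized A and B given above. Of 8 apical polarity genes 0 were called by limma, with 1 lower and 1 higher at an unadjusted p under 0.05. The Crumbs gene Crb3 had a difference of -0.78 (adjusted p = 0.108) without overlap, and Prkci, an atypical protein kinase C, had -0.36 (adjusted p = 0.338). Of 9 desmosome and plakin genes 6 passed the filter and 0 were called by limma, with 1 lower at an unadjusted p under 0.05, the plakophilin gene Pkp3 (-0.60, adjusted p = 0.127). Perp, a desmosome membrane protein, was the most abundant there (-0.38, adjusted p = 0.347). Of 8 other keratin genes only Krt42 passed, with -0.13 (adjusted p = 0.778), and Krt20 and Krt23 were listed at 0 in some libraries of both sorts. Krt5 was at 0 in all reduced libraries and at 0.0285 to 0.115 FPKM in the oxidized ones.

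Of 10 epithelial transcription and splicing regulators 8 passed the filter and 0 were called by limma. At an unadjusted p under 0.05, 4 were lower and 0 higher, against 5.93% and 13.5% of all tested genes. The regulators had a median log2 difference of -0.47. The zinc finger gene Ovol2, a repressor of mesenchymal genes, was at 1.48, 1.99 and 0.506 FPKM in the oxidized libraries against 2.94, 3.05 and 3.57 FPKM in the reduced libraries. The groups did not overlap (log2 difference -0.90, SE 0.25, limma adjusted p = 0.126), and 13.9% of its stretches are shared with other genes. Grhl1, a paralogue of Grhl2, was named after its values were seen. It was at 0.844, 0.582 and 0.884 FPKM in the oxidized libraries against 2.31, 1.73 and 1.46 FPKM in the reduced libraries (log2 difference -0.67, adjusted p = 0.117). Of the 8 tested regulators 6 had negative and 2 positive differences. The positive ones were the paralogue Grhl3 (0.21, adjusted p = 0.745) and Klf5 (0.84, adjusted p = 0.444). Grhl3 was at 4.03, 5.50 and 1.61 FPKM in the oxidized libraries against 3.09, 3.27 and 2.19 FPKM in the reduced libraries. Elf3, an epithelial ETS factor, was the most abundant regulator of the list (-0.53, adjusted p = 0.237). The authors' deposited table marks Marveld3, Ovol2, Grhl1 and the plakin gene Ppl of these lists as significant and lower, with q-values of 1.7e-04, 0.0478, 0.00405 and 0.00128. Ppl was at only 0.0482 to 0.416 FPKM and did not pass the filter, so limma did not test it.

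Of 12 trafficking and membrane protease genes 10 passed and 0 were called by limma, with 0 lower and 2 higher at an unadjusted p under 0.05. Ap1m1, given above, was its most abundant member and the one with the largest difference. Among 12 repressors of epithelial genes and mesenchymal counterparts 9 passed and 8 had positive differences, with a median of 0.68 against 0.08 over all tested genes. The 1 negative gene was the fibronectin gene Fn1 (log2 difference -0.72, SE 0.39, limma adjusted p = 0.345). It was at 26.6, 25.7 and 81.1 FPKM in the oxidized libraries against 72.4, 56.4 and 62.6 FPKM in the reduced libraries. Of this list 1 gene was called higher by limma, as were 0.517% of all tested genes. Cdh11, a mesenchymal cadherin, rose from 3.87, 4.04 and 5.26 FPKM in the reduced libraries to 13.3, 10.1 and 10.6 FPKM in the oxidized libraries. The groups stood well apart (log2 difference 1.19, SE 0.18, limma adjusted p = 0.0330), with an adjusted p of 0.0753 in the fit with the block. Without 1 library the adjusted p of Cdh11 ran from 0.00656 (oxidized C left out) to 0.180 (reduced A left out), and it missed the threshold without oxidized A, oxidized B, reduced A or reduced B. Snai2, the Slug repressor, was at 46.0, 24.9 and 25.5 FPKM in the oxidized libraries against 12.3, 9.78 and 17.4 FPKM in the reduced libraries (log2 difference 1.21, SE 0.28, limma adjusted p = 0.0891). The authors' deposited table marks 4 genes of this list as higher, namely Snai2 (q-value 0.00632), Prrx1, Cdh2 and Cdh11. Prrx1, at 0.328 to 1.74 FPKM, did not pass the filter, so limma did not test it. Without oxidized C, where 7.36% of tested genes were called higher and 2.51% lower by limma, the adjusted p was 0.0222 for Snai2, 0.0262 for Marveld3, 0.0128 for Ap1m1 and 0.00840 for Cdh2. Of the epithelial and mesenchymal lists limma then also called Klf5 and Ap1b1 higher and Fn1 lower. For all these genes the sort cannot be told apart, in that fit, from the library traits of oxidized A and B. The vimentin gene Vim, the most abundant of the list, differed by 0.09 (adjusted p = 0.885).

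**Figure D5:**
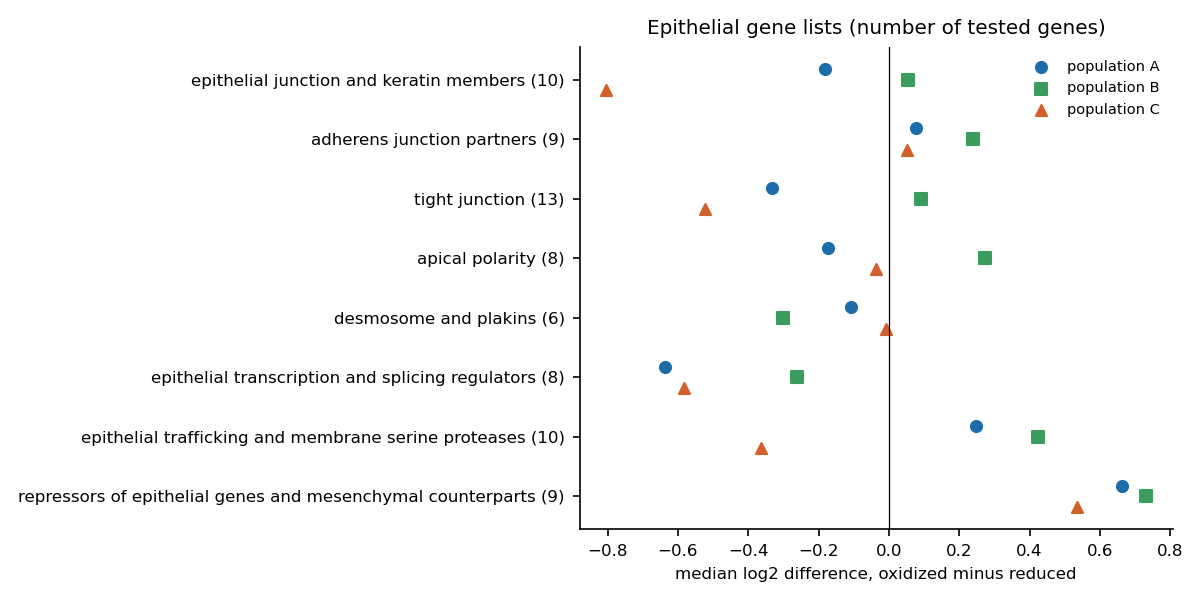
Median log2 difference within each population (x axis, oxidized minus reduced) over the tested genes of each list, with their number in brackets. Repressors and mesenchymal counterparts lie at 0.53 to 0.73 in all 3 populations, regulators at -0.64 to -0.26, and the 10 junction and keratin genes at -0.80 in C against -0.18 in A and 0.05 in B.

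Markers of cell types that day 5 bodies can hold moved beside these genes, and their part in the results was not tested. In bulk libraries fewer cells of a type and less RNA per cell cannot be told apart. Calls here are limma's, and over all tested genes limma called 0.279% lower and 0.517% higher. At an unadjusted p under 0.05, 5.93% of them were lower and 13.5% higher, and their median log2 difference was 0.08. Naive pluripotency markers (9 of 10 tested, 8 with negative differences, 0 called, 3 lower at an unadjusted p under 0.05) summed to 204 to 296 FPKM in oxidized and 308 to 413 FPKM in reduced libraries, with Dppa3 the most abundant. Core and primed markers (8 of 8 tested, Tdgf1 called lower) summed to 249 to 621 FPKM in oxidized, lowest in C, and 530.0 to 680.3 FPKM in reduced libraries, with Utf1 the most abundant. Visceral endoderm markers (13 of 17 tested, all with positive differences, Sparc and Col4a2 called higher) summed to 169.8 to 219 FPKM in oxidized and 73.5 to 101 FPKM in reduced libraries. At an unadjusted p under 0.05, 11 of them were higher. Most of the sum was Sparc in every library, at 105 to 155 FPKM in oxidized and 46.2 to 66.8 FPKM in reduced libraries. The defining visceral endoderm genes Hnf4a and Afp were low and listed at 0 in some reduced libraries only. Hnf4a was at 0.149, 0.284 and 0.193 FPKM in oxidized and 0, 0.0365 and 0 FPKM in reduced libraries. Afp was at 0 in reduced C alone. Mesenchyme markers (8 of 11 tested, all positive, Col3a1 and Fbln1 called higher, 6 higher at an unadjusted p under 0.05) summed to 123 to 167 FPKM against 57.6 to 82.0 FPKM, with Mmp2 the most abundant. With the population as a block the limma adjusted p of Tdgf1, Sparc, Col4a2, Col3a1 and Fbln1 was 0.0564, 0.0902, 0.0665, 0.0613 and 0.0875, and each also missed the threshold without oxidized A, oxidized B, reduced A or reduced B.

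Cardiac markers (6 of 10 tested, 0 called, 3 higher at an unadjusted p under 0.05, Hand1 the most abundant) summed to 156 to 215 FPKM in oxidized and 77.6 to 120.2 FPKM in reduced libraries. Most of the cardiac sum was Hand1 in every library, a gene that is also in the trophoblast list. Endothelial and blood markers (7 of 10 tested, 0 called, 1 lower and 1 higher at an unadjusted p under 0.05) summed to 72.0 to 616 FPKM in oxidized and 40.3 to 629 FPKM in reduced libraries, highest in population C in both sorts, with Hbb-bh1 the most abundant. Neuroectoderm markers (4 of 10 tested, 0 called, 2 higher at an unadjusted p under 0.05) summed to 14.5 to 30.4 FPKM against 9.54 to 13.4 FPKM, with Irx3 the most abundant and Neurog2 and Olig2 listed at 0 in some libraries. Surface ectoderm markers (2 of 8 tested, 0 called, 1 higher at an unadjusted p under 0.05, Gata3) summed to 14.1 to 15.9 FPKM against 6.72 to 10.8 FPKM, with Trp63 and Krt5 listed at 0 in reduced libraries only. Trophoblast markers (5 of 10 tested, 0 called, 1 lower and 1 higher at an unadjusted p under 0.05) summed to 167 to 229 FPKM against 99.2 to 142 FPKM. Most of that sum was Hand1, and Elf5 and Gcm1 were listed at 0 in some libraries. The authors' deposited table marks as lower Tdgf1 and the naive markers Zfp42 and Tfcp2l1. It marks as higher 8 visceral endoderm markers, 4 mesenchyme markers, the cardiac marker Tnni1, the neuroectoderm markers Nes and Irx3, and Gata3. Without oxidized C limma called 10 visceral endoderm, 3 mesenchyme, 3 cardiac, 2 neuroectoderm, 1 trophoblast and 1 surface ectoderm marker higher. Hand1 is counted there both among the cardiac markers and as the trophoblast marker. Of the naive markers limma then called 2 lower and 1 higher, the last being Nanog. In that fit 7.36% of all tested genes were called higher and 2.51% lower, and the sort cannot be told apart from the library traits of oxidized A and B.

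The genes whose levels followed the mean standardized profile of the 10 members most closely, among 7084 other genes whose mean reached 5 FPKM, were Apoc1, Dyrk3, Pmaip1, Tcf15 and Cbr3. Their Pearson r over the 6 libraries was 0.993, 0.985, 0.982, 0.975 and 0.974. These libraries are paired by population and the profile is lowest in oxidized C, at -0.95 SD units, so the values describe likeness only. The mean joins members with opposed profiles. In oxidized C, Krt8, Krt18 and Krt19 were at 1.34, 0.81 and 0.43 SD units, and Cdh1, Epcam, Cldn6 and Cldn7 at -1.82, -1.95, -1.85 and -1.97. Krt8 and Cdh1 correlated at r = -0.88, so likeness to the mean is not likeness to each member. Pmaip1, a cell death regulator, was at 9.01, 8.81 and 2.80 FPKM in the oxidized libraries, and the reduced libraries held 12.4, 10.3 and 10.1 FPKM. Tcf15, a transcription factor of mesoderm and of primed stem cells, was at 13.6, 14.4 and 5.69 FPKM in the oxidized libraries, and the reduced libraries held 18.4, 16.3 and 15.4 FPKM. For both genes oxidized C was the lowest library.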

How the data were processed

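The table the authors deposited gives FPKM levels by gene in 6 columns, per the file headers, and a fold ratio of oxidized to reduced, its log2, a p-value and a q-value of their own comparison. The authors' call marks a q-value under 0.05 with a change of at least 2-fold. HISAT2, StringTie, edgeR, cutadapt and FastQC are listed, with the build mm10 and no versions, per the submitters' processing notes. The sources used here do not say how strand and multiply matching fragments were counted.

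FPKM values are not counts, and only 26.6% to 29.8% of low values lay within 2% of whole steps, so reads were not recovered and no count test was run. Log2(FPKM + 1) values of the 12191 genes whose mean reached 1 FPKM were fitted with limma 3.58.1 (R 4.3.3; lmFit, eBayes with a mean-variance trend, group only), two-sided, with Benjamini-Hochberg adjustment over all genes and a threshold of 0.05. The fit was tested on simulated data. Values are given as levels per library, and intervals are at 95%.

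The letter in each column name pairs the libraries, since the series' design text says that both sorts came from each population. Deviations from the group means correlated at r = -0.06, 0.07 and 0.20 within A, B and C. Between different letters r ran from -0.17 to 0.13. It was 0.13 for oxidized A with reduced B and 0.12 for oxidized B with reduced A. For A and B these values were above those within the letter. The members and lists were chosen with earlier results of these data known. Genes named beyond the members are the called genes, the largest difference and the most abundant gene of each epithelial list, the most abundant gene of each marker list, and the 5 genes most like the members' profile. Outside this rule, and chosen after their values were seen, are Grhl1, Grhl3, Gata3 and the called genes of the marker lists. So are Cdh2 as a partner in a ratio, the genes of the check on the cell type and list genes at 0 in some libraries. The same holds for list genes named for a call in the authors' deposited table or without oxidized C. Of the 8 epithelial lists and 9 marker lists, all are given. Gene positions, overlaps and shared stretches of 31 bases come from GENCODE vM21 (mm10), which holds 31182 of the 31265 gene identifiers.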

Additional observations from a re-analysis of the deposited data

Results flagged for a closer look

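In all, 5 members had log2 differences of opposite sign in different populations, each from 1 oxidized and 1 reduced library, and these differences between populations were not tested. Cdh1 was at -0.94 in C and 0.10 in B, Cldn6 at -0.92 in C and 0.46 in B, Cldn7 at -1.26 in C and 0.14 in A, and Esrp1 at -0.69 in C and 0.06 in B. Krt8 went the other way, at -0.15 in A and 0.17 in C.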

How the results depend on the processing

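The number of genes called, 97 in all (63 higher, 34 lower), was 4 with the replicate block, 1 with no filter, 11 without oxidized A and B together and 1572 without population C, and 3 to 1204 when 1 library was left out (1204 without oxidized C). Quantile normalization gave 54 higher and 51 lower. Of the members, 1 was called lower (Ap1m2). That count was 0 with the replicate block, 0 with no filter and 0 without oxidized A and B together, and 0 to 1 when 1 library was left out. It was 1 under every other alternative, and 0 members were called higher under any. Leaving out oxidized A and B together, or population C, was chosen after seeing the data. Without oxidized C, limma called 1 member lower and 0 higher. There, as without population C, the sort cannot be told apart from the library traits of oxidized A and B. With the replicate block 0 genes of the lists were called, so all list genes named as called lost their call. Of 148 alternative values of the members' differences, 129 kept direction and call, 8 lost the call (all of Ap1m2) and 11 changed sign.

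When 1 library was left out the log2 difference ran from -0.76 to 0.098 for Cdh1, from -0.33 to 0.44 for Cldn6, from -0.60 to 0.028 for Cldn7, from -0.28 to 0.22 for Krt8, from -0.36 to 0.018 for Krt42 and from -0.25 to 0.38 for Vim. The changed values were 0.098 for Cdh1, 0.44 for Cldn6, 0.028 for Cldn7 and -0.25 for Vim without oxidized C, 0.00057 for Cldn6 and 0.016 for Krt8 without reduced A, 0.037 for Krt8 without oxidized A, 0.22 for Krt8 and 0.018 for Krt42 without oxidized B, 0.17 for Krt8 without reduced C and -0.0035 for Vim without reduced B. Without population C, Cldn6 was at 0.37, Cldn7 at 0.093 and Vim at -0.13. Without oxidized A and B together, Krt8 was at 0.53, Ctnnb1 at -0.22 and the log2 ratio difference of Krt8 to Krt18 at 0.27. The cause was not tested.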
